A study of Mus musculus with 12 samples.

Results

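Iron handling was followed through 10 genes: the transferrin receptor Tfrc and 9 genes for iron transport, storage, export, sensing and release from haem (Slc11a2, Steap3, Fth1, Ftl1, Slc40a1, Aco1, Ireb2, Fbxl5 and Hmox1). They are 10 of 38481 genes with listed transcripts, and all 10 passed the low-count filter that left 13247 genes for testing. Tfrc was chosen by its CPM in these same libraries, for its low values in rapamycin. Its rapamycin values, and the difference between them in the presence of each siRNA, are therefore given as a description with no test. The other 9 were taken for their known place in the pathway.

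Total RNA came from C2C12 cells, a mouse myoblast line, grown in medium with 10% serum. The groups were the Crebl2 siRNA with rapamycin, the Crebl2 siRNA with ethanol, the Luc siRNA with rapamycin and the Luc siRNA with ethanol, with 3 libraries each. Every group carried an siRNA for 3 days, and the Luc siRNA, against Renilla luciferase, was the control for Crebl2, a gene for a bZIP-domain protein. Rapamycin, which inhibits the kinase complex mTORC1, was given at 20 nM for 12 hours, and ethanol was its control. C2C12 is a single established line, and nothing in the labels says that the 3 libraries of a group came from separate cultures, so the p-values measure the spread between libraries, which may be technical.

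Cells take up iron on transferrin: the receptor encoded by Tfrc carries it into endosomes, where Steap3 reduces it and Slc11a2 moves it to the cytosol. Iron that is not used is stored in ferritin, built from Fth1 and Ftl1 subunits, or leaves through ferroportin, encoded by Slc40a1. When iron is scarce, the iron regulatory proteins, encoded by Aco1 and Ireb2, bind a short hairpin called the iron-responsive element (IRE). Binding in a 5′ UTR blocks translation, and binding in the 3′ UTR of Tfrc protects the mRNA from decay. RNA counts can reflect the second effect, though not apart from changes in transcription, and do not read the first.

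Stretches that match this hairpin are shown because they divide these genes into groups and divide the transcripts of Slc11a2. The search looked on the sense strand of the UTRs for a C, then 5 bases, then CAGTGN, then 5 bases, with the 5-base arms able to pair (G-U pairs allowed). Capitals mark the bulged C and the 6-base loop. The 3′ UTR of Tfrc (transcript Tfrc-201, 2458 bases) held 4 matches with every base of the arms paired, on the plus strand of chromosome 16 (GENCODE M21 transcripts, GRCm38):
Tfrc, chr16:32631219-32631248: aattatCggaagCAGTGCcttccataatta
Tfrc, chr16:32631598-32631627: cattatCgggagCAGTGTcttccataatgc
Tfrc, chr16:32631663-32631692: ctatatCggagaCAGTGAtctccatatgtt
Tfrc, chr16:32631710-32631739: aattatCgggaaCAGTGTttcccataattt

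Fth1, Ftl1 and Slc40a1 each held 1 match with all arm bases paired in the 5′ UTR. Slc11a2 held 1 match with 1 unpaired position in the 3′ UTR of transcript Slc11a2-205. The sequences follow the strand of each gene, plus for Fth1 and minus for the others:
Fth1, chr19:9982732-9982761: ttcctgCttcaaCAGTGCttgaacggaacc
Ftl1, chr7:45459778-45459807: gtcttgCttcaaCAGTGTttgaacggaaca
Slc40a1, chr1:45925464-45925493: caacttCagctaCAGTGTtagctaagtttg
Slc11a2, chr15:100395152-100395181: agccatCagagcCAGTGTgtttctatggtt

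Matches of this kind were rare. With all arm bases paired, 0.129% of 10835 tested protein-coding genes with a 5′ UTR and 0.734% of 10900 with a 3′ UTR held one in the longest such UTR, and with 1 unpaired position allowed these shares were 0.701% and 4.93%. Tfrc had the most matches in a 3′ UTR, and among the 10900 it was the single gene with more than 1 fully paired match. The UTRs of Aco1, Ireb2, Hmox1, Steap3 and Fbxl5 held no match, and neither did the 3′ UTR of the transcript Slc11a2-201. A match is a likeness of letters and not a measured binding site.

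Crebl2 itself was low in all 6 libraries with its siRNA. In rapamycin it had 10.7, 8.97 and 9.49 CPM with the Crebl2 siRNA, against 40.0, 36.4 and 36.3 CPM with the Luc siRNA. Its ethanol libraries had 4.87, 7.41 and 6.02 CPM with the Crebl2 siRNA, against 23.8, 25.3 and 26.2 CPM with the Luc siRNA. CPM denotes the count rate that edgeR computes from library totals scaled by TMM, and these totals were 33404087 to 42891015 counts. The myoblast markers Myod1, Myf5, Des, Cdh15 and Itga7 were present in every group, with summed levels of 2930 to 4260 CPM. Defining markers of other cell types were at or near 0: Hbb-bs, Ptprc, Adgre1, Alb, Ttr, Serpina1a and Tek had no read in any library, and Hbb-bt reached at most 1 count. Hba-a1, an alpha-globin gene, reached at most 190 counts. Summed erythroid markers ran from 12 to 18.8 CPM, mostly Epor, macrophage markers from 29.2 to 44.2 CPM, nearly all Cd14, and endothelial and hepatocyte markers stayed at or below 0.27 and 0.152 CPM.

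Tfrc (chromosome 16, 32608920 to 32632794, plus strand, GRCm38) differed between all 4 groups without overlap. Cells with the Crebl2 siRNA had 25.1, 22.1 and 22.8 CPM in rapamycin, and 97.4, 137 and 100 CPM in ethanol. With the Luc siRNA it had 12.2, 11.4 and 12.1 CPM in rapamycin, and 53.9, 66 and 64.2 CPM in ethanol. The order of the groups was therefore Crebl2 siRNA in ethanol, Luc siRNA in ethanol, Crebl2 siRNA in rapamycin and Luc siRNA in rapamycin, from high to low. The library that stood farthest from its group was Crebl2 siRNA in ethanol, replicate 2, at 137 CPM. Nearly all counts belonged to Tfrc-201 (ENSMUST00000023486), whose 3′ UTR with its 4 matches to the IRE pattern lay wholly among the bases that could be counted.

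As a description of the values for which it was chosen, Tfrc averaged 23.3 ± 1.57 CPM in rapamycin and 111 ± 22.1 CPM in ethanol with the Crebl2 siRNA (SD, n = 3 each), a log2 fold change of −2.25 (SE 0.12). Under the Luc siRNA it averaged 11.9 ± 0.459 CPM in rapamycin and 61.4 ± 6.56 CPM in ethanol (SD, n = 3 each), a log2 fold change of −2.37 (SE 0.12). In rapamycin the fitted level of Tfrc fell by 79.0% with the Crebl2 siRNA and fell by 80.6% with the Luc siRNA. Subtracting the log2 change under the Luc siRNA from that under the Crebl2 siRNA left 0.11 (SE 0.17). Without the library at 137 CPM, the value with the Crebl2 siRNA was −2.08.

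The siRNA comparisons of Tfrc were not used to choose it. In ethanol, Tfrc rose 1.82-fold with the Crebl2 siRNA over the Luc siRNA (log2 change 0.86, SE 0.11, adjusted p = 1.6e-05 by edgeR). It rose 1.96-fold in rapamycin (0.97, SE 0.13, adjusted p = 2.8e-05 by edgeR). All 3 libraries with the Crebl2 siRNA lay above all 3 with the Luc siRNA in both treatments (2-sided exact permutation p = 0.1 for each, the smallest that 3 libraries against 3 allow). Both rises stayed called when any 1 library was left out, with log2 changes from 0.69 to 0.95 in ethanol and from 0.95 to 1.04 in rapamycin.

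**Figure D1:**
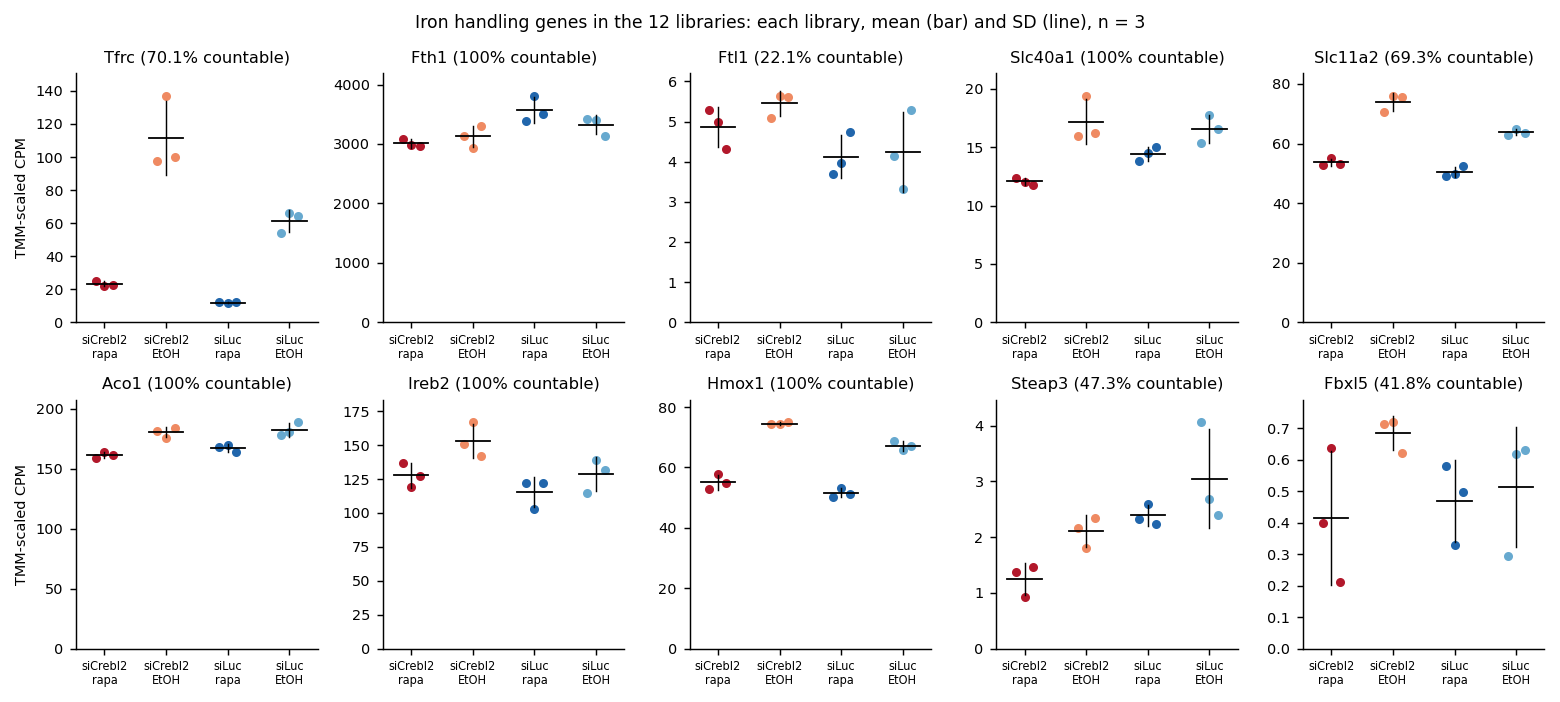
TMM-scaled CPM (y axis from 0) of the 10 iron genes in the 12 libraries, by group. Points are libraries, bars the mean and lines the SD of 3. Tfrc separates all 4 groups, while Fth1 lies between 2940 and 3810 CPM throughout. The percentage after each name is the share of exonic bases at which reads could be counted.

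Slc11a2 (chromosome 15, 100387898 to 100423055, minus strand), the endosomal iron transporter, changed in the same direction as Tfrc but much less. It had 52.8, 55.1 and 53.2 CPM in rapamycin against 70.6, 76.0 and 75.5 CPM in ethanol with the Crebl2 siRNA. In cells with the Luc siRNA it had 49.1, 49.9 and 52.4 CPM in rapamycin against 62.8, 64.8 and 63.6 CPM in ethanol. Rapamycin and ethanol libraries did not overlap with either siRNA. The falls were −0.46 (SE 0.05, adjusted p = 5.9e-07 by edgeR) with the Crebl2 siRNA and −0.34 (SE 0.05, adjusted p = 2.3e-05 by edgeR) with the Luc siRNA, as log2 fold changes. It rose with the Crebl2 siRNA in ethanol (0.22, SE 0.05, adjusted p = 0.0014 by edgeR) and was not called in rapamycin (0.09, SE 0.05, adjusted p = 0.16 by edgeR).

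Among the reads that could be assigned to 1 transcript, the decline of Slc11a2 lay in the transcript with the IRE match. Slc11a2-205 (ENSMUST00000138843), whose printed match could be counted over all 30 bases, had 36.3, 37.2 and 37.0 CPM in rapamycin against 54.0, 59.3 and 57.5 CPM in ethanol with the Crebl2 siRNA. With the Luc siRNA it had 32.1, 32.4 and 33.4 CPM in rapamycin against 44.7, 46.9 and 45.8 CPM in ethanol. Slc11a2-201 (ENSMUST00000023774), which ends in another 3′ UTR without a match, had 16.2 to 17.9 CPM in rapamycin and 16.7 to 18 CPM in ethanol with the Crebl2 siRNA. Under the Luc siRNA Slc11a2-201 had 17 to 19 CPM in rapamycin and 17.8 to 18.1 CPM in ethanol. Its rapamycin and ethanol libraries thus overlapped, while those of Slc11a2-205 did not.

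Tested one by one among 14494 transcripts, of which 42.8% and 38.8% were called in rapamycin with the Crebl2 and the Luc siRNA, Slc11a2-205 fell in rapamycin with the Crebl2 siRNA (log2 change −0.60, SE 0.05) and the Luc siRNA (−0.52, SE 0.05), at edgeR adjusted p = 7.6e-08 and 4.9e-07. It rose with the Crebl2 siRNA in ethanol (0.29, SE 0.05, adjusted p = 0.00025 by edgeR) and in rapamycin (0.21, SE 0.05, adjusted p = 0.0043 by edgeR), where 34.6% and 31.4% of all transcripts were called. Slc11a2-201 was called in none of the 4 comparisons, with log2 fold changes of −0.09 to 0.01 and adjusted p-values of 0.32 to 0.94.

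Whether the transcripts changed unequally was tested directly, with a test chosen after the data had been seen. The gene-level F test of edgeR's diffSpliceDGE called unequal change in rapamycin with the Crebl2 siRNA (adjusted p = 2e-05, 9.51% of 1230 genes called) and with the Luc siRNA (adjusted p = 0.00087, 4.96% called). Between the siRNAs it called a difference in ethanol (adjusted p = 0.005, 5.12% called) and not in rapamycin (adjusted p = 0.099, 4.47% called). Its transcript-level form, which sets each transcript against the rest of its gene, called less. Slc11a2-201 had adjusted p-values of 0.0024 and 0.086 in rapamycin with the Crebl2 and the Luc siRNA, and 0.21 between the siRNAs in ethanol. Slc11a2-205 had 0.48, 0.72 and 1 in the same comparisons. Per countable base, Slc11a2-201 held 49.5% ± 1.24 of the counts in rapamycin and 39.2% ± 1.31 in ethanol with the Crebl2 siRNA (SD, n = 3 each). In cells with the Luc siRNA it held 53.9% ± 0.913 in rapamycin and 45.6% ± 0.722 in ethanol (SD, n = 3 each). Reads common to both transcripts are missing from these counts, so each level rests on 1264 bases of Slc11a2-201 and 2707 bases of Slc11a2-205.

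**Figure D2:**
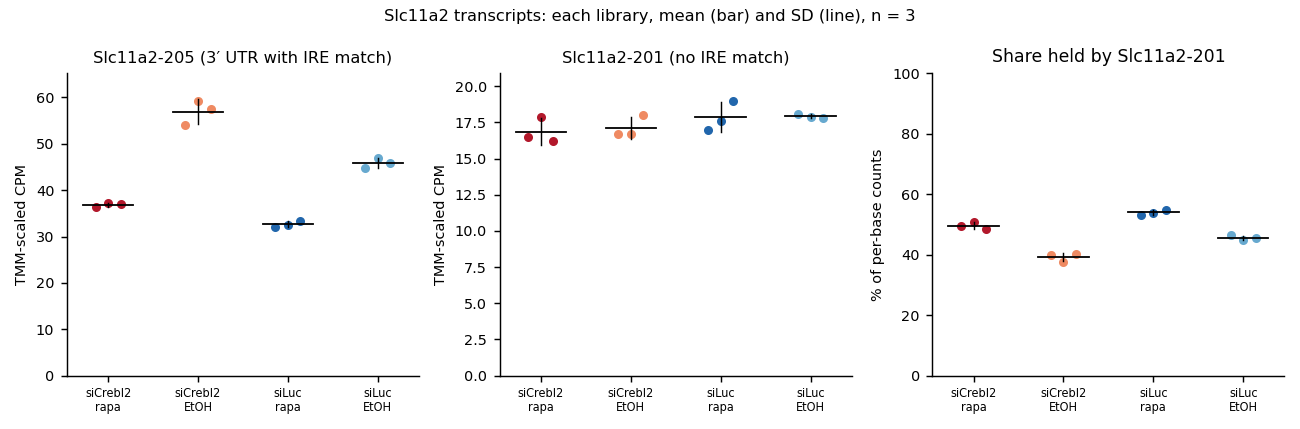
CPM of the Slc11a2 transcript with an IRE match (left) and the one without (middle), and the percentage of per-base counts held by Slc11a2-201 (right), by group. Points are libraries, bars means and lines the SD of 3. The level of Slc11a2-205 drops in rapamycin in both siRNA groups, and that of Slc11a2-201 stays between 16.2 and 19 CPM.

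Steap3 (chromosome 1, 120224386 to 120272705, minus strand), the endosomal ferrireductase, went against Tfrc in the siRNA comparisons. It had 1.38, 0.928 and 1.46 CPM with the Crebl2 siRNA against 2.33, 2.6 and 2.24 CPM with the Luc siRNA in rapamycin. In ethanol it had 2.17, 1.8 and 2.35 CPM with the Crebl2 siRNA against 4.06, 2.69 and 2.39 CPM with the Luc siRNA. The groups did not overlap, but in ethanol the gap between the nearest libraries was small. Steap3 fell with the Crebl2 siRNA in rapamycin (log2 change −0.93, SE 0.22, adjusted p = 0.004 by edgeR) and in ethanol (−0.53, SE 0.20, adjusted p = 0.045 by edgeR). The second call was lost without Luc siRNA ethanol replicate 1, at −0.27 (edgeR adjusted p = 0.29), and also without any 1 of the 3 libraries with the Crebl2 siRNA in ethanol. Rapamycin lowered Steap3 with the Crebl2 siRNA (−0.75, SE 0.22, adjusted p = 0.011 by edgeR, or 0.069 without Crebl2 siRNA rapamycin replicate 2). With the Luc siRNA its log2 fold change was −0.35 (SE 0.19, adjusted p = 0.17 by edgeR). Steap3 averaged 84 counts per library, from 47.3% of its exonic bases.

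Of the ferritin subunits, the heavy one was called in 1 comparison and the light one in none. Fth1 (chromosome 19, 9982646 to 9985098, plus strand) encodes the heavy subunit, which oxidises iron for storage. It had 3090, 2980 and 2960 CPM with the Crebl2 siRNA against 3380, 3810 and 3510 CPM with the Luc siRNA in rapamycin, groups that did not overlap. This was a fall of 15.6% with the Crebl2 siRNA (log2 change −0.24, SE 0.05, adjusted p = 0.0029 by edgeR). In ethanol it had 3140, 2940 and 3300 CPM with the Crebl2 siRNA against 3420, 3410 and 3140 CPM with the Luc siRNA, which overlapped (−0.09, SE 0.05, adjusted p = 0.23 by edgeR). In rapamycin against ethanol its log2 fold changes were −0.06 (SE 0.05, adjusted p = 0.45 by edgeR) with the Crebl2 siRNA and 0.10 (SE 0.05, adjusted p = 0.16 by edgeR) with the Luc siRNA.

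Ftl1 (chromosome 7, 45457944 to 45459884, minus strand), the light subunit, had libraries that overlapped in all 4 comparisons. They ran from 4.32 to 5.29 CPM in rapamycin and from 5.1 to 5.64 CPM in ethanol with the Crebl2 siRNA. Under the Luc siRNA they ran from 3.69 to 4.73 CPM in rapamycin and from 3.31 to 5.28 CPM in ethanol. With the Crebl2 siRNA against the Luc siRNA its log2 fold changes were 0.24 (SE 0.15, adjusted p = 0.26 by edgeR) in rapamycin and 0.37 (SE 0.15, adjusted p = 0.067 by edgeR) in ethanol, and the second was called without Luc siRNA ethanol replicate 3 (0.55, edgeR adjusted p = 0.0084). In rapamycin against ethanol they were −0.16 with the Crebl2 siRNA and −0.03 with the Luc siRNA (SE 0.15 and edgeR adjusted p = 0.41 and 0.88). These SEs leave room for changes of the size called in other members. Of its exonic bases 22.1% were countable, or 214 bases, and none of the printed match was among them, so its low CPM is no sign of a low level. Both ferritin genes have processed pseudogenes of nearly the same sequence, and how reads that fit several places were counted was not given in the sources used here.

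Slc40a1 (chromosome 1, 45908068 to 45925582, minus strand), the iron exporter ferroportin, fell in rapamycin with the Crebl2 siRNA. It had 12.4, 12.0 and 11.8 CPM in rapamycin against 16.0, 19.4 and 16.2 CPM in ethanol with the Crebl2 siRNA. In cells with the Luc siRNA it had 13.8, 14.5 and 15.0 CPM in rapamycin against 15.4, 17.8 and 16.6 CPM in ethanol. Neither pair of groups overlapped. The fall was called with the Crebl2 siRNA (log2 change −0.51, SE 0.08, adjusted p = 0.00012 by edgeR) and missed the threshold with the Luc siRNA (−0.21, SE 0.08, adjusted p = 0.058 by edgeR). The difference between these changes was not called (−0.30, SE 0.12, adjusted p = 0.25 by edgeR). In rapamycin Slc40a1 was lower with the Crebl2 siRNA than with the Luc siRNA (−0.25, SE 0.08, adjusted p = 0.031 by edgeR), a call lost when any 1 of the 6 libraries was left out (up to 0.17) and under RLE scaling and DESeq2 (0.05 and 0.057). In ethanol its change was 0.05 (SE 0.08, adjusted p = 0.68 by edgeR). The fall of Slc40a1 in rapamycin with the Luc siRNA was called in 1 of 6 fits with 1 library left out.

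Among the iron sensors, Aco1 (chromosome 4, 40143081 to 40198338, plus strand) had the smallest changes that were called. Its product is aconitase when it holds an iron-sulfur cluster and iron regulatory protein 1 when it does not. It had 159, 164 and 162 CPM in rapamycin against 182, 176 and 184 CPM in ethanol with the Crebl2 siRNA, a fall of 10.6% (log2 change −0.16, SE 0.04, adjusted p = 0.0039 by edgeR). With the Luc siRNA it had 168, 170 and 164 CPM in rapamycin against 178, 181 and 189 CPM in ethanol, a fall of 8.6% (−0.13, SE 0.04, adjusted p = 0.017 by edgeR). The groups did not overlap. The first call was lost without Crebl2 siRNA rapamycin replicate 1 or 3 (edgeR adjusted p = 0.066 and 0.052), and the second without Luc siRNA ethanol replicate 3 (edgeR adjusted p = 0.088). Between the siRNAs the changes of Aco1 were −0.02 in ethanol and −0.05 in rapamycin, and neither was called.

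Ireb2 (chromosome 9, 54863789 to 54912530, plus strand) encodes iron regulatory protein 2. With the Crebl2 siRNA it had 137, 119 and 127 CPM in rapamycin against 151, 167 and 142 CPM in ethanol, without overlap. Under the Luc siRNA it had 122, 103 and 122 CPM in rapamycin against 115, 139 and 132 CPM in ethanol, which overlapped. It fell in rapamycin with the Crebl2 siRNA (log2 change −0.26, SE 0.08, adjusted p = 0.018 by edgeR) and was not called with the Luc siRNA (−0.15, SE 0.08, adjusted p = 0.16 by edgeR). In ethanol it rose with the Crebl2 siRNA (0.25, SE 0.08, adjusted p = 0.028 by edgeR). The fall was lost without Crebl2 siRNA ethanol replicate 2 or Crebl2 siRNA rapamycin replicate 2 or 3 (edgeR adjusted p = 0.086, 0.12 and 0.084). The rise was lost without Luc siRNA ethanol replicate 1 or Crebl2 siRNA ethanol replicate 1 or 2 (edgeR adjusted p = 0.13, 0.051 and 0.12). The change of Ireb2 in rapamycin with the Luc siRNA was called in 1 of 6 fits with 1 library left out.

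Fbxl5 (chromosome 5, 43744615 to 43821638, minus strand) encodes the iron-sensing part of a ubiquitin ligase that marks iron regulatory protein 2 for destruction. It averaged 19.6 counts per library from 41.8% of its exonic bases, and its CPM spanned 0.213 to 0.638 in rapamycin and 0.623 to 0.72 in ethanol with the Crebl2 siRNA. In cells with the Luc siRNA it spanned 0.328 to 0.582 in rapamycin and 0.295 to 0.632 in ethanol. No comparison was called, and with SEs of 0.33 to 0.38 on the log2 scale a change of the size seen in most of the other genes was not detectable at this depth. Its log2 fold change in rapamycin with the Crebl2 siRNA was −0.70 (adjusted p = 0.12 by edgeR), called without Crebl2 siRNA rapamycin replicate 2 (−1.11, edgeR adjusted p = 0.034).

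Hmox1 (chromosome 8, 75093621 to 75100589, plus strand), whose enzyme frees iron from haem, fell in rapamycin with both siRNAs. It had 52.8, 57.8 and 54.7 CPM in rapamycin against 74.3, 74.3 and 75.0 CPM in ethanol with the Crebl2 siRNA. With the Luc siRNA it had 50.3, 53.3 and 51.3 CPM in rapamycin against 68.9, 65.7 and 67 CPM in ethanol. No rapamycin library reached an ethanol library. The log2 fold changes were −0.44 (SE 0.05, adjusted p = 1.1e-06 by edgeR) with the Crebl2 siRNA and −0.38 (SE 0.05, adjusted p = 6.5e-06 by edgeR) with the Luc siRNA. The Crebl2 siRNA raised Hmox1 in ethanol (0.15, SE 0.04, adjusted p = 0.016 by edgeR), a call lost without Luc siRNA ethanol replicate 2 (0.13, edgeR adjusted p = 0.061). Its change between the siRNAs in rapamycin was 0.09 (SE 0.05, adjusted p = 0.13 by edgeR). With 1 library left out this change was 0.09 to 0.16, called in 2 of 6 fits.

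Counted together without Tfrc, 6 of 9 genes fell and 0 rose in rapamycin with the Crebl2 siRNA (Slc40a1, Slc11a2, Aco1, Ireb2, Hmox1 and Steap3), at a median log2 fold change of −0.44 against −0.01 over all tested genes. Of all tested genes 45.3% were called in that comparison, 19.7% higher and 25.6% lower. Under the Luc siRNA 3 of 9 fell (Slc11a2, Aco1 and Hmox1) and 0 rose, at a median of −0.15 against 0.02, where 41.1% of all tested genes were called, 19.5% higher and 21.6% lower. At an unadjusted p under 0.05 edgeR also had 0 higher in both comparisons, and so did DESeq2. The share of 33.3% with the Luc siRNA, all of it falls, is below the 41.1% of all genes called in either direction and above the 21.6% called lower. The rapamycin comparisons with each siRNA share no library.

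In ethanol, 4 of 10 rose with the Crebl2 siRNA over the Luc siRNA (Tfrc, Slc11a2, Ireb2 and Hmox1) and Steap3 fell, where 38.4% of all tested genes were called, 21.4% higher and 17% lower. In rapamycin Tfrc rose, and Fth1, Slc40a1 and Steap3 fell, where 33.1% of all tested genes were called, 16.3% higher and 16.8% lower. The members’ 5 of 10 in ethanol and 4 of 10 in rapamycin are near those shares, so the counts say little of iron genes as a set. Median log2 fold changes were 0.18 and 0.02, against 0.01 and −0.01 over all tested genes. Each siRNA comparison shares its libraries with the rapamycin comparisons, so the directions are not independent of one another.

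**Figure D3:**
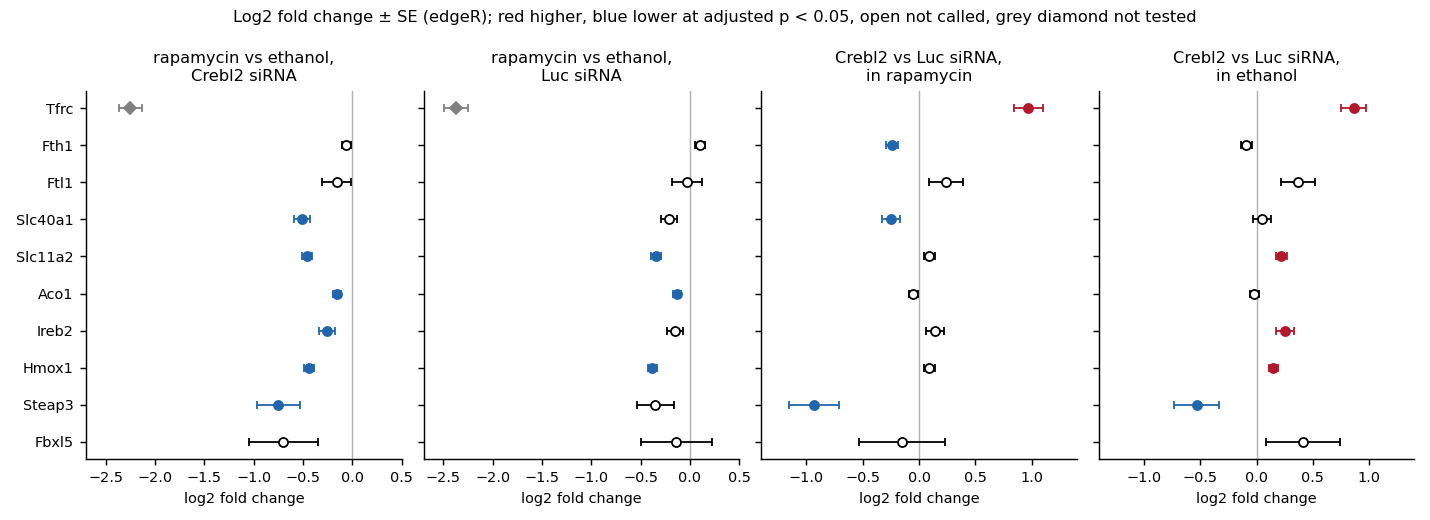
Log2 fold changes with their SE (x axis) of the 10 iron genes in the 4 comparisons, from the edgeR fit over all 12 libraries. Filled circles were called at an adjusted p under 0.05, red higher and blue lower, open circles were not called, and grey diamonds were not tested. Tfrc lies at 0.86 and 0.97 in the siRNA comparisons, and no other gene passes 0.50 upward. The x axes differ between the rapamycin and the siRNA panels.

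For none of the 9 other genes was the rapamycin change called different between the siRNAs (interaction term of edgeR, smallest adjusted p = 0.25, with 1.2% of all tested genes called). At an unadjusted p under 0.05 there was 1, Slc40a1 (the share of all tested genes under it was not counted), and DESeq2 called 0. The SEs of these differences were large for Steap3 (−0.40, SE 0.29) and Fbxl5 (−0.57, SE 0.50), and small for Slc11a2 (−0.13, SE 0.06), Hmox1 (−0.06, SE 0.06) and Aco1 (−0.03, SE 0.06).

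Levels can be set against each other only per length. Per 1000 countable bases, Fth1 stood at 3240 to 3840 CPM in the means of the 4 groups, far above Aco1 at 42.2 to 47.7 CPM and Hmox1 at 32.9 to 47.5 CPM. Ireb2 stood at 20.1 to 26.5 CPM, Ftl1 at 19.3 to 25.5 CPM and Slc11a2 at 12.7 to 18.6 CPM per 1000 bases. The Slc11a2 value pools 1264 countable bases of Slc11a2-201 and 2707 of Slc11a2-205, which lie mostly in different 3′ UTRs. It thus averages the 2 transcripts instead of adding them and is too low for the gene. The place of Slc11a2 against Ireb2 and Ftl1 is therefore uncertain. The Ftl1 value rests on 214 countable bases, 22.1% of its exonic bases. Reads that several transcripts share are missing, and dividing by countable bases may not make up for them. The place of Ftl1 in this order, also against Fth1, is therefore uncertain. Ireb2 and Ftl1 differed by less than the SD of Ftl1 in every group, as did Aco1 and Hmox1 with the Crebl2 siRNA in ethanol by less than the SD of Aco1. Tfrc ran from 3.27 CPM with the Luc siRNA in rapamycin to 30.6 CPM with the Crebl2 siRNA in ethanol on this scale. It therefore lay below Slc11a2 in both rapamycin groups. In ethanol its order against Slc11a2 is uncertain, because the Slc11a2 value is too low for the reason given above. Slc40a1 stood at 3.58 to 5.1 CPM, and Steap3 and Fbxl5 were lowest, at 0.471 to 1.14 and 0.18 to 0.297 CPM per 1000 bases. The limit given for Ftl1 also applies to Steap3 and Fbxl5, of which 47.3% and 41.8% of exonic bases were countable.

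Markers of dividing cells were also lower in rapamycin. The transferrin receptor is known to be abundant on dividing cells, so the list Mki67, Top2a, Cdk1, Ccnb1, Ccna2, Rrm2, Mcm5 and Pcna is given beside it. Its summed level was 667 to 833 CPM in rapamycin and 2270 to 2550 CPM in ethanol with the Crebl2 siRNA. In cells with the Luc siRNA it was 612 to 677 CPM in rapamycin and 1830 to 2070 CPM in ethanol. All 7 tested markers fell in rapamycin with each siRNA, where 25.6% and 21.6% of all tested genes were called lower with the Crebl2 and the Luc siRNA. Of the 7, 2 rose with the Crebl2 siRNA over the Luc siRNA in rapamycin and 3 in ethanol (28.6% and 42.9%), where 16.3% and 21.4% of all tested genes were called higher. Muscle differentiation markers, led by Myog and Acta1, summed to 37.9 to 48.3 CPM with the Crebl2 siRNA against 179 to 215 CPM with the Luc siRNA in rapamycin. In ethanol they summed to 60.8 to 73.9 CPM with the Crebl2 siRNA against 488 to 636 CPM with the Luc siRNA. The part of either list in the values of Tfrc was not tested, and in these bulk libraries fewer cells of a kind and less RNA per cell cannot be told apart.

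The genes whose log2(CPM + 1) followed Tfrc most closely over the 12 libraries, among 7003 protein-coding genes with at least 5 CPM, were B4galt6 (Pearson r = 0.994), Ska2 (0.992), Depdc7 (0.992), Lin9 (0.992), Rrm1 (0.991) and Cse1l (0.991). These values are descriptions over libraries that share the same 4 groups. Rrm1 encodes the large subunit of ribonucleotide reductase, Lin9 a subunit of the MuvB complex of cell-cycle genes, and Ska2 a protein of the spindle attachment complex. No function is given here for B4galt6, Depdc7 and Cse1l, and the share of cell-cycle genes among the 7003 was not counted. Their changes were smaller than that of Tfrc, which was chosen for its low values in rapamycin. Rrm1 averaged 199 ± 11.7 CPM in rapamycin and 423 ± 19.2 CPM in ethanol with the Luc siRNA (SD, n = 3 each), and B4galt6 averaged 79.3 ± 0.67 CPM in rapamycin and 109 ± 1.44 CPM in ethanol. Of the iron genes, Slc11a2 (r = 0.975) and Hmox1 (0.965) were most alike to Tfrc, and Steap3 (0.188) and Fth1 (−0.412) least.

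**Figure D4:**
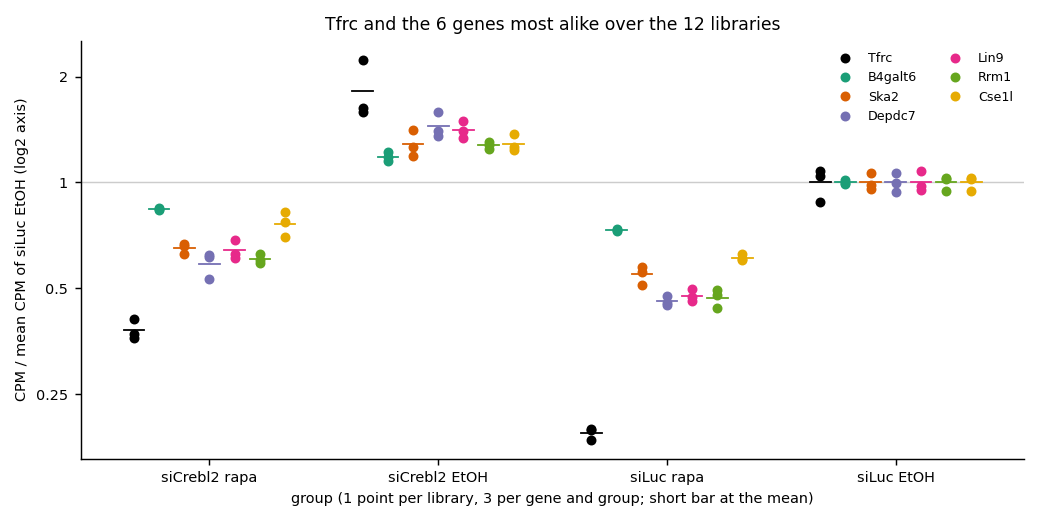
CPM of Tfrc and of the 6 genes with the most similar pattern, each divided by its own mean in the Luc siRNA ethanol libraries (y axis, log2 scale). Points are libraries and short bars the means of 3. All 7 genes share the order of the 4 groups, which follows from picking the 6 for their likeness to Tfrc in these libraries. Tfrc, itself chosen for its low values in rapamycin, spans the widest range.

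Proteins that act on Tfrc were read from a list of 9, of which 7 were tested. Hif1a and Arnt did not pass the low-count filter, with 14.1% and 10.5% of their exonic bases countable. Their change is therefore unknown here. Zfp36 encodes tristetraprolin, which has been reported to bind AU-rich words in the Tfrc 3′ UTR and speed its decay. It rose in rapamycin with the Luc siRNA, at 1.28 ± 0.13 CPM in rapamycin and 0.351 ± 0.116 CPM in ethanol (SD, n = 3 each; log2 fold change 1.86, SE 0.30, adjusted p = 0.00012 by edgeR). Under the Crebl2 siRNA it averaged 0.546 ± 0.221 CPM in rapamycin and 0.286 ± 0.107 CPM in ethanol and stayed just above the threshold (0.91, SE 0.36, adjusted p = 0.05 by edgeR). The difference between these changes was not called (−0.95, SE 0.48, adjusted p = 0.39 by edgeR). In rapamycin Zfp36 was lower with the Crebl2 siRNA (−1.24, SE 0.28, adjusted p = 0.0034 by edgeR). Its levels rest on few counts.

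The Tfrc 3′ UTR held 5 copies of ATTTA, and 32.2% of 3′ UTRs of 1000 to 4000 bases held as many. It held 2 copies of the longer TATTTAT, each of which contains an ATTTA, and 14% of those UTRs held as many. Zc3h12a encodes Regnase-1, an RNase reported to cut the Tfrc 3′ UTR. It rose in rapamycin with the Crebl2 siRNA (log2 change 0.28, edgeR adjusted p = 0.00081) and was not called with the Luc siRNA (0.07, edgeR adjusted p = 0.37). It also rose with the Crebl2 siRNA in rapamycin (0.36, edgeR adjusted p = 0.00016) and in ethanol (0.15, edgeR adjusted p = 0.046). Rc3h1, Zfp36l1 and Zfp36l2, relatives in function or sequence, were called in no comparison, Zfp36l1 from 9.97% of its bases. Of the transcription factors, Myc rose in rapamycin with the Crebl2 siRNA (1.39, SE 0.36, adjusted p = 0.0047 by edgeR) from 4.45% of its bases. Ets1 fell there (−0.19, edgeR adjusted p = 0.013) and rose with the Crebl2 siRNA in ethanol (0.19, edgeR adjusted p = 0.013).

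A wider list of 98 genes, of which 75 were tested, joined 8 sublists of iron and haem genes with these 9 factors. In rapamycin 13 rose and 27 fell with the Crebl2 siRNA, and 11 rose and 22 fell with the Luc siRNA. These are 53.3% and 44.0% called, against 45.3% and 41.1% of all tested genes. In cells with the Crebl2 siRNA against the Luc siRNA, 13 rose and 17 fell in rapamycin and 19 rose and 13 fell in ethanol (40.0% and 42.7%, against 33.1% and 38.4%). No gene of this list was called for the interaction by edgeR (smallest adjusted p = 0.052), where 1.2% of all tested genes were called. DESeq2 called 2, Cp and Hscb, and 297 over all genes. At an unadjusted p under 0.05 edgeR had 16 of the 75. The share of all tested genes under that p was not counted, so the 16 say nothing of iron genes as a set.

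In mitochondrial iron import and iron-sulfur assembly, 10 of 21 tested genes fell and 3 rose in rapamycin with each siRNA. Of all tested genes, 25.6% were called lower and 19.7% higher with the Crebl2 siRNA, and 21.6% and 19.5% with the Luc siRNA. Its median log2 fold changes were −0.27 with the Crebl2 siRNA and −0.28 with the Luc siRNA. Hspa9, the mitochondrial chaperone of cluster transfer, averaged 811 ± 39.1 CPM in rapamycin and 1260 ± 29.3 CPM in ethanol with the Crebl2 siRNA, and 639 ± 22.3 CPM in rapamycin and 944 ± 14.8 CPM in ethanol with the Luc siRNA (SD, n = 3 each). It fell by 0.63 and 0.56 on the log2 scale (edgeR adjusted p = 1.5e-08 and 7.8e-08). Hscb, its co-chaperone, moved the other way, with rises of 0.98 (edgeR adjusted p = 1.5e-09) and 0.65 (edgeR adjusted p = 2e-07). The ferredoxin gene Fdx1l rose by 0.41 with the Crebl2 siRNA and 0.25 with the Luc siRNA. Slc25a37, mitoferrin 1, which brings iron into mitochondria, rose by 0.19 with the Crebl2 siRNA and 0.34 with the Luc siRNA.

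In uptake, 1 gene rose and 3 fell of 8 tested in rapamycin with the Crebl2 siRNA, and 1 rose and 1 fell with the Luc siRNA. That is 50% and 25% called, against 45.3% and 41.1% of all tested genes. Steap1, a metalloreductase of the Steap3 family, fell in rapamycin by 0.60 with the Crebl2 siRNA and by 0.45 with the Luc siRNA (edgeR adjusted p = 8.4e-07 and 2.9e-05). Opposite to Steap3, it rose with the Crebl2 siRNA, by 0.27 in rapamycin and 0.43 in ethanol (edgeR adjusted p = 0.0033 and 5e-05). Slc39a14, a transporter for iron not bound to transferrin, rose with the Crebl2 siRNA by 0.32 in rapamycin and 0.57 in ethanol (edgeR adjusted p = 9.1e-05 and 2.2e-07). Exoc6, an exocyst gene whose mouse mutant recycles transferrin poorly, rose by 0.68 and 0.47 (edgeR adjusted p = 7.6e-07 and 2.6e-05). Slc22a17, reported as a lipocalin receptor, fell by 0.93 and 0.69 and rose in rapamycin with the Luc siRNA (0.31, edgeR adjusted p = 0.038).

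Among 6 tested genes of export and its hormone, 2 fell and 1 rose in rapamycin with the Crebl2 siRNA, and 3 fell and 2 rose with the Luc siRNA, in both cases against ethanol. That is 50% and 83.3% called, against 45.3% and 41.1% of all tested genes. With the Crebl2 siRNA against the Luc siRNA, 4 fell and 0 rose in rapamycin (Hfe2, Cp, Tmprss6 and Neo1, median log2 fold change −0.64), and 3 fell and 0 rose in ethanol (Hfe2, Cp and Tmprss6, median −0.72). Of all tested genes, 16.8% were called lower and 16.3% higher in rapamycin, and 17% and 21.4% in ethanol. Hfe2 encodes hemojuvelin, a co-receptor in hepcidin control that skeletal muscle expresses. It averaged 1.22 ± 0.387 CPM in rapamycin and 2.91 ± 0.638 CPM in ethanol with the Crebl2 siRNA, and 7.77 ± 0.894 CPM in rapamycin and 23.2 ± 2.62 CPM in ethanol with the Luc siRNA (SD, n = 3 each). With the Crebl2 siRNA against the Luc siRNA it fell by 2.67 in rapamycin and 3.00 in ethanol on the log2 scale (edgeR adjusted p = 1e-07 and 4.7e-09), beside the fall of the muscle differentiation markers given above. Cp, the ferroxidase ceruloplasmin (19.2% countable), averaged 10.3 ± 0.986 CPM in rapamycin and 4.26 ± 0.956 CPM in ethanol with the Crebl2 siRNA (log2 change 1.28, edgeR adjusted p = 2.3e-06). With the Luc siRNA it averaged 17.7 ± 1.06 CPM in rapamycin and 12.8 ± 1.69 CPM in ethanol (0.46, edgeR adjusted p = 0.0081). The difference between these rises was 0.82 (SE 0.19, adjusted p = 0.052 by edgeR). Between the siRNAs, Cp fell with the Crebl2 siRNA by 0.77 in rapamycin and 1.59 in ethanol (edgeR adjusted p = 0.00027 and 5.1e-07).

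In haem metabolism, Fech encodes the enzyme that inserts iron to form haem and carries an iron-sulfur cluster. Fech fell with the Crebl2 siRNA by 0.60 in rapamycin and 0.52 in ethanol (edgeR adjusted p = 3.2e-08 and 1.2e-07). Of 8 tested genes of haem synthesis, 2 fell in each siRNA comparison, and 0 rose in rapamycin and 1 in ethanol. Their shares called were 25% in rapamycin and 37.5% in ethanol, against 33.1% and 38.4% of all tested genes. Blvra, biliverdin reductase, which acts after Hmox1 in haem breakdown, fell in rapamycin by 0.46 with the Crebl2 siRNA and 0.54 with the Luc siRNA (edgeR adjusted p = 1.8e-06 and 4.6e-07). Of 8 tested genes of haem breakdown and transport, 2 rose and 2 fell with the Crebl2 siRNA in rapamycin against ethanol, and 1 rose and 2 fell with the Luc siRNA. That is 50% and 37.5% called, against 45.3% and 41.1% of all tested genes.

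The smaller sublists were mixed, and each holds few genes. Of all tested genes, 45.3% and 41.1% were called in rapamycin with the Crebl2 and the Luc siRNA. Between the siRNAs, 33.1% were called in rapamycin and 38.4% in ethanol. In storage and iron chaperones, 4 genes were tested, of which 1 rose and 1 fell in rapamycin with the Crebl2 siRNA and 0 changed with the Luc siRNA. Under the Crebl2 siRNA against the Luc siRNA, 1 of these rose and 1 fell in rapamycin, and 2 rose and 1 fell in ethanol. In cytosolic iron-sulfur assembly, 8 genes were tested, of which 4 fell and 1 rose in rapamycin with the Crebl2 siRNA and 3 fell and 1 rose with the Luc siRNA. Of 5 other tested genes known for an IRE, 1 rose and 1 fell in rapamycin with each siRNA, at medians of −0.22.

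**Figure D5:**
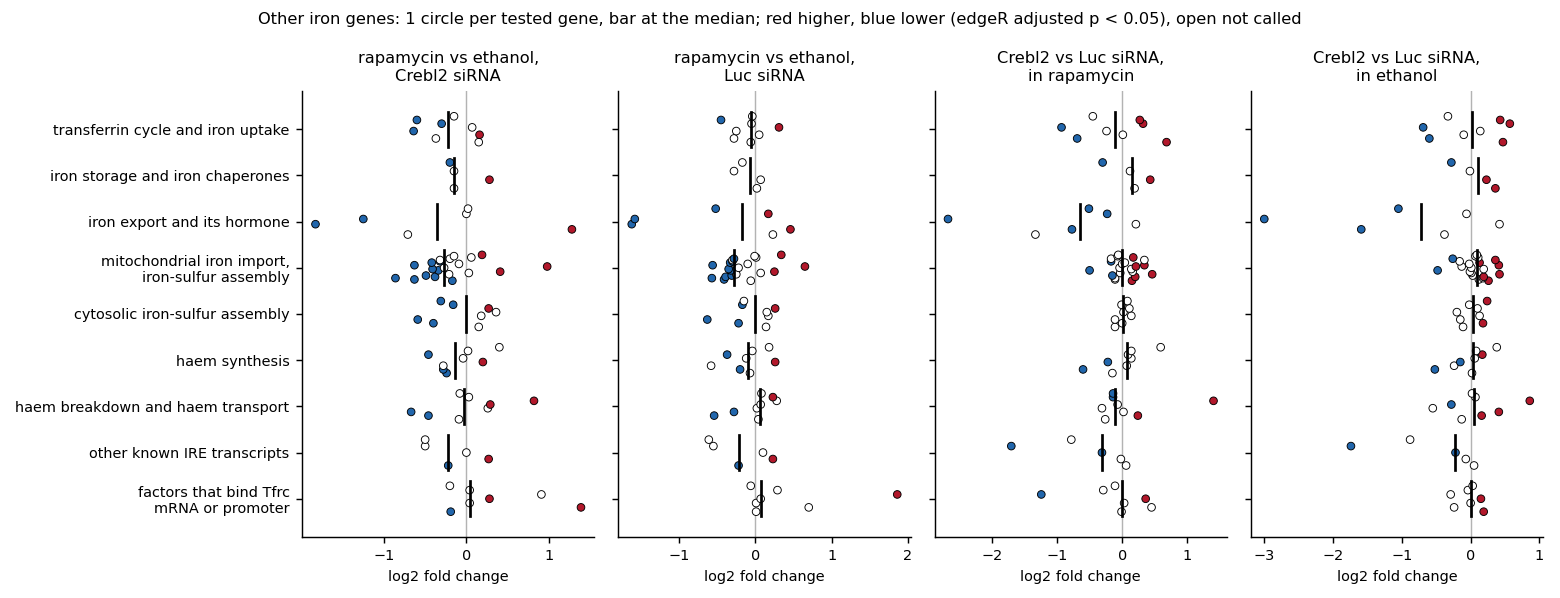
Log2 fold changes (x axis) of the 75 tested genes of the wider iron list in the 4 comparisons, by sublist. Each circle is a gene, red if called higher, blue if called lower and open if not called, and the bar is the median. Mitochondrial iron import and iron-sulfur assembly has its median at −0.27 and −0.28 in the rapamycin comparisons. The x axes differ between panels.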

How the data were processed

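The 12 deposited tables hold whole-number read counts per Ensembl transcript, not normalized by the authors. Per the submitters' processing notes, reads went through Trim Galore, TopHat and HTSeq, with mm9 and GRCm38 listed as builds and no version or setting. The kit was stranded, and the strand setting used in counting was not given in the sources used here. Of 58611 transcripts, 58264 matched GENCODE M21 and were summed per gene, and 347, with 0.0382% of the reads, were left out. The counts lack reads that several listed transcripts share, so the share of exonic bases in exactly 1 listed transcript, the countable share, is given where it is low.

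Counts were scaled by TMM, filtered at a minimum count of 10 and compared in edgeR 4.0.16 (R 4.3.3) by quasi-likelihood F tests, with 4 group means, 12 libraries in one fit and Benjamini-Hochberg adjustment over 13247 genes; a gene was called under 0.05. The common biological coefficient of variation was 6.85%. SEs were obtained from the log2 change and the F statistic. Unequal change of a gene's transcripts was tested with diffSpliceDGE of the same package. DESeq2 1.42.0, RLE scaling, other filters, a replicate block, fits of the compared groups, protein-coding genes only, transcripts one by one and each library left out were alternatives. No 2 libraries of a group held the same values.

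Named genes are the 10 members, Crebl2, the factors acting on Tfrc, the 6 genes most alike to Tfrc, and the 3 called genes with the smallest p each way per comparison from the wider list; 1 gene that this rule picked is not reported here. Members, lists and tests were chosen with earlier results of these data known.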

Additional observations from a re-analysis of the deposited data

How the results depend on the processing

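The falls of Slc11a2 and Hmox1 in rapamycin with each siRNA, and the rises of Tfrc with the Crebl2 siRNA, kept their direction and call under all alternatives run, except that with transcripts tested one by one the falls of Slc11a2 held for Slc11a2-205 and not for Slc11a2-201 (0.01 with the Crebl2 siRNA and −0.04 with the Luc siRNA). Without a count filter 5 of 9 members were called in rapamycin with the Luc siRNA in place of 3, adding Slc40a1 and Ireb2. With the Crebl2 siRNA in ethanol, 3 of 10 were called in place of 5 under the replicate block (Ireb2 and Steap3 lost, adjusted p = 0.051 each) and in the fit of only the compared groups (Hmox1 and Steap3 lost, 0.074 and 0.054). Pairing by replicate number was looked at through each library's deviations from its group mean, correlated across genes between the compared groups. Same-numbered libraries had correlations from −0.49 to 0.25, and differently numbered ones from −0.47 to 0.58. With 3 libraries per group this cannot settle whether the samples were paired. Slc40a1 with the Crebl2 siRNA in rapamycin lost its call under RLE scaling, DESeq2, no filter and transcripts tested one by one (0.05 to 0.074). Hmox1 with the Crebl2 siRNA in ethanol lost its call without a filter (0.16) and with transcripts tested one by one (0.051), and Steap3 there under DESeq2 (0.056). Calls gained were Hmox1 with the Crebl2 siRNA in rapamycin by single transcripts (0.048), Ireb2 there without a filter (0.017), and Slc40a1 in rapamycin with the Luc siRNA by single transcripts and in the fit of only the compared groups (0.034 and 0.045). The cause was not tested in any of these. Over all genes the interaction called 159, against 297 with DESeq2, 415 without a filter and 91 under the replicate block; RLE scaling moved its split to 89 higher and 49 lower from 81 and 78. From the wider list it called 2 genes under RLE scaling, DESeq2, no filter, a minimum count of 50 and protein-coding genes only, in place of 0.

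Leaving out 1 library at a time gave 2 to 5 members called in rapamycin with the Luc siRNA, 4 to 6 with the Crebl2 siRNA, 3 to 6 for the siRNAs in ethanol, 3 to 4 in rapamycin and 0 for the interaction. It gave 29 to 35, 36 to 41, 23 to 30, 23 to 30 and 0 to 2 genes of the wider list, and 4662 to 4963, 5206 to 5565, 4286 to 4719, 3460 to 3934 and 85 to 172 of all tested genes, in that order. Low counts limit Fbxl5, Steap3 and Zfp36, and few countable bases limit Ftl1, Cp and Myc.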
